A study of Mus musculus with 8 samples.

Results

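Serglycin, the proteoglycan of the mast cell granule, and 9 enzymes that build and sulfate its glycosaminoglycan chains were followed in bone marrow–derived mast cells (BMMCs). The 10 genes were taken by symbol (*Srgn*, *Ext1*, *Ext2*, *Ndst1*, *Ndst2*, *Glce*, *Hs2st1*, *Hs6st1*, *Chst11* and *Chst15*) from tables of read counts over 24059 gene symbols, and each of the 10 was found. The cells were grown from C57BL/6 bone marrow with IL-3 for at least 4 wk, from 4 mice that the study's methods give as 6 to 8 wk old, and were transfected with Cas9 loaded with guide RNA (ribonucleoproteins, RNPs). Scrambled RNP samples, labelled *Zc3h12a* WT, received a guide with no target, and *Zc3h12a* RNP samples, labelled *Zc3h12a* KO, received guides against the gene of Regnase-1, for which the methods name 3 crRNAs. Each group had 4 samples, taken from resting cells 1 wk after transfection and numbered 1 to 4. Both groups therefore share the IL-3 culture, Cas9 and transfection, and the edited samples are whole transfected populations and not clones. The labels do not say that samples of one number share a mouse, although the design gives the cells of each mouse both RNPs, and p-values otherwise measure only the spread between these samples.

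Serglycin is a small protein that carries long, highly sulfated chains on serine residues, and through their negative charge it holds proteases and amines in the granule. In mast cells of connective tissue type these chains are heparin, whereas cultured BMMCs are known for a large share of chondroitin sulfate E. Heparin and heparan sulfate are polymerized by exostosins on a linkage region that chondroitin sulfate shares. They are then modified in turn by N-deacetylase/N-sulfotransferases, the C5-epimerase and 2-O-, 6-O- and 3-O-sulfotransferases, and chondroitin sulfate receives its own 4-O- and 6-O-sulfates.

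Serine codons that alternate with glycine codons encode the stretch to which the chains are attached, so its start is shown. In the coding sequence of *Srgn*, read from the GRCm39 genome with the GENCODE annotation, 10 Ser-Gly pairs follow each other without a break in codons 90 to 109 of 152. The run spans 60 bases in exon 3 of 3 (chr10:62330777-62330836, minus strand). Its first 30 bases, at chr10:62330807-62330836, hold 5 pairs, with serine codons in capitals and glycine codons in lower case.

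*Srgn* Ser-Gly codons: TCAggtTCGggcTCCggcTCTggcTCCggc

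Across the run, 5 different serine codons were used. Regnase-1 is known to cut mRNAs at stem-loops in the 3′ UTR whose loop is a pyrimidine, a purine and a pyrimidine. The 3′ UTRs of the canonical transcripts (502 to 4782 bases) were therefore searched, on the transcribed strand, for 5 bases, TAT or TGT, and the 5 complementary bases. The pattern was found in 3 of 10 genes, once in *Ext1* and *Chst11* and at 2 places in *Ndst1*, and not in *Srgn*. For whole 3′ UTRs no share over all genes was taken, so this count has no measure beside it. Loops that hold a C and shorter or imperfect stems were not searched, so other stem-loops in *Srgn* are not excluded. Within the first 500 bases the pattern was found in 1 of 10 (*Chst11*), beside 4.19% of 14532 3′ UTRs at least that long. The sites of *Ext1* (chr15:52929023-52929035, minus strand, exon 11) and *Chst11* (chr10:83027891-83027903, plus strand, exon 3) are shown with the loop in capitals.

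*Ext1* stem-loop: ggctaTGTtagcc
*Chst11* stem-loop: caaggTGTccttg

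These matches are descriptions of sequence, and whether the protein binds them was not measured.

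Total counts ran from 19610240 to 33986762 in the scrambled group and from 23712029 to 28564062 in the *Zc3h12a* RNP group. All 10 genes were among the 14934 that passed edgeR's filter on low counts, with from 201 counts (*Glce*) to 130466 counts (*Srgn*) in a sample. The targeted gene, *Zc3h12a*, had 34.8 ± 6.65 CPM (counts per 1000000 of the TMM-normalized library) in the scrambled group against 33.2 ± 5.91 in the *Zc3h12a* RNP group (mean ± SD, 4 samples per group, as for all group means below). Its mRNA level thus does not separate the groups and gives no check of the labels. Of 13 mast cell markers, each reached 1 CPM, although the connective tissue protease gene *Mcpt4* had only 2.24 to 7.94 CPM. Summed, these markers were at 63602 to 74549 CPM with scrambled RNP and at 60810 to 64479 CPM with *Zc3h12a* RNP, so the ranges overlapped. Of 8 macrophage markers, 6 were below 1 CPM in every sample, as were all 4 neutrophil markers listed in the tables (of 8), 4 of 5 B cell markers and 2 of 3 T cell markers listed (of 4). On the basophil, megakaryocyte and fibroblast and endothelium lists, *Cd200r3* (439 to 535 CPM), *Itga2b* (1261 to 2026 CPM) and *Pecam1* (574 to 703 CPM) were high, which mast cells are also known to express, and no other listed gene of these lists exceeded 8.51 CPM. In such bulk samples, fewer cells of a type and less RNA per cell cannot be told apart.

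The genes differed widely in level, and the core protein stood far above its enzymes. Levels between genes were compared as CPM per kilobase of canonical transcript, averaged over all 8 samples. *Srgn* was at 1692 ± 261, which placed it 15th of 14934 genes tested. The N-sulfotransferase gene *Ndst2* came next at 110.0 ± 22.5, followed by the 6-O-sulfotransferase gene *Hs6st1* at 42.2 ± 6.70. In each of the 8 samples, *Srgn* was above *Ndst2* and *Ndst2* above *Hs6st1*, and their ranges did not meet. A middle group followed, with *Ext2* at 23.6 ± 4.54, *Chst15* at 23.4 ± 5.02, *Chst11* at 19.7 ± 1.93 and *Ndst1* at 14.9 ± 3.17. Neighbours within this group overlapped in their ranges, and *Ext2* was above *Chst15* in only 4 of 8 samples. *Hs2st1*, which encodes the 2-O-sulfotransferase, was at 7.43 ± 1.06. The lowest were *Ext1* at 2.08 ± 0.376 and the epimerase gene *Glce* at 1.77 ± 0.229, whose ranges overlapped. With the summed length of all annotated exons in place of the canonical transcript, *Ext2* moved from 4th to 8th. *Chst11* then stood 4th, above *Chst15* in 5th place, and the first 3 and the last 2 kept their places.

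**Figure D1:**
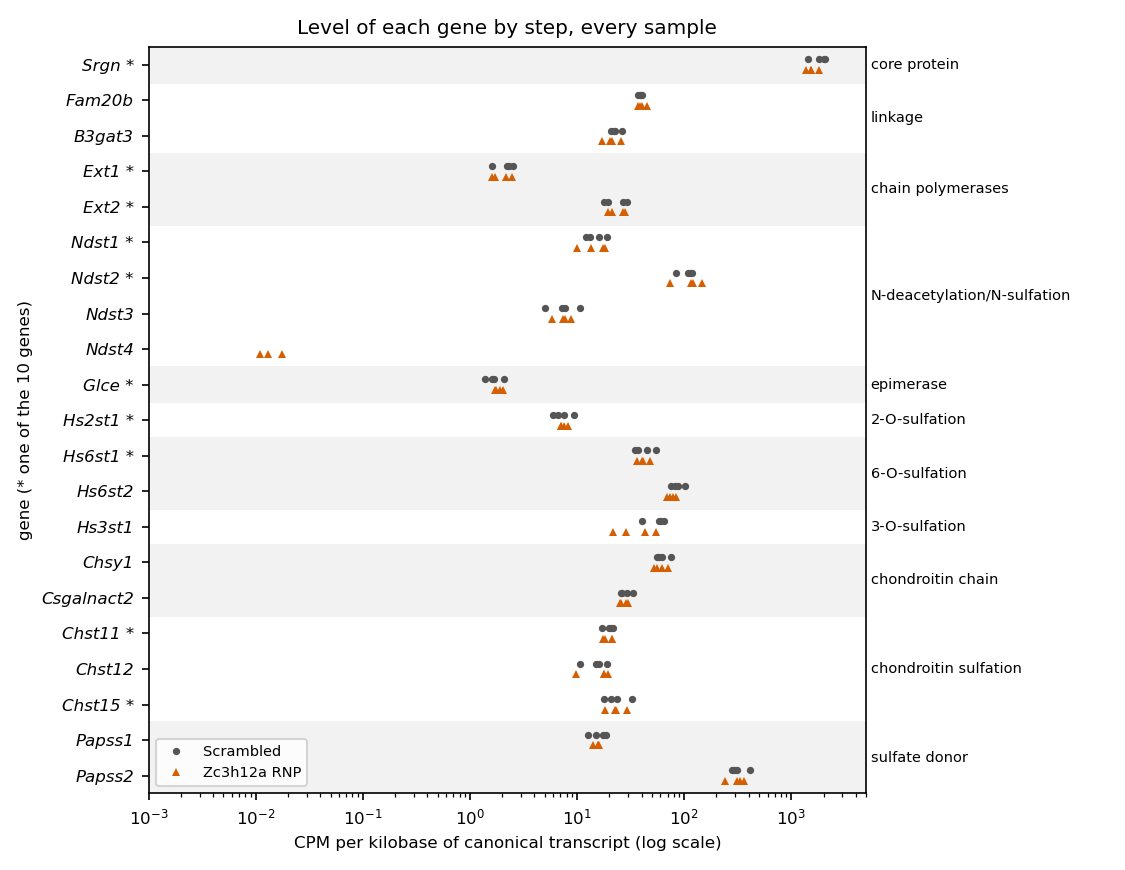
Level of each gene in every sample, as CPM per kilobase of canonical transcript on a log axis, ordered by the step its protein takes. Circles are scrambled RNP samples and triangles *Zc3h12a* RNP samples, asterisks mark the 10 genes, and samples of *Ndst4* at 0 are not drawn. *Srgn* lies above all enzymes shown, *Ndst2* above the other N-sulfotransferase genes, and the groups overlap for each gene shown (*Ndst4* had 0 counts in 5 samples, of both groups, and at most 3 in the others).

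The core protein gene *Srgn* (chr10:62329029-62363238, minus strand) was at 3921, 4347, 4469 and 3131 CPM in scrambled RNP samples 1 to 4, and at 3330.1, 3286, 3903 and 2978 CPM in *Zc3h12a* RNP samples 1 to 4. It was lower after *Zc3h12a* RNP in each of the 4 pairs, while the groups overlapped, since scrambled RNP sample 4 lay below the first 3 *Zc3h12a* RNP samples. The means were 3967 ± 605 and 3374 ± 386 CPM. The fit gave a log2 fold change of -0.23 (standard error 0.08, 95% interval -0.41 to -0.04), or a fold of 0.855 (0.753 to 0.970). Its unadjusted p was 0.0217 and its Benjamini-Hochberg adjusted p over all genes tested was 0.686, so it did not pass (quasi-likelihood test in edgeR, blocked by replicate number). The differences of the pairs in log2 CPM were -0.24, -0.40, -0.20 and -0.07. Pair 2 had the largest difference, and without replicate 2 the log2 fold change of *Srgn* was -0.11. The fitted values of all genes also moved without that replicate, by a median of 0.054. How far such a shift accounts for the move of *Srgn* was not tested. The summed mast cell markers given above were also lower on the whole after *Zc3h12a* RNP. *Cpa3* made up the largest part of that sum (26728 to 34240 CPM), and was lower in pairs 1 and 2 and slightly higher in pairs 3 and 4. The part of these markers in the value of *Srgn* was not tested.

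The exostosins Ext1 and Ext2 form the complex that polymerizes the backbone of heparan sulfate and heparin. *Ext1* (chr15:52927434-53209602, minus strand) was at 17.1, 19.3, 18.0 and 12.5 CPM in the scrambled group and at 13.1, 19.0, 16.8 and 12.5 in the *Zc3h12a* RNP group. All 4 pairs were nominally lower, but those of replicates 2 and 4 by no more than 0.02 on the log2 scale, and the pair of replicate 1 accounted for most of the fitted value of -0.13 (standard error 0.10). *Ext2* (chr2:93491373-93653003, minus strand) was at 79.9, 87.4, 58.0 and 53.2 CPM and at 82.7, 78.7, 58.1 and 62.4 CPM in the respective groups. For *Ext2*, replicates 1 and 2 were high and replicates 3 and 4 low in both groups, and the fitted change was 0.032 (standard error 0.087).

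Ndst1 and Ndst2 remove acetyl groups from glucosamine and replace them with sulfate, the first modification of the chain, and Ndst2 is the enzyme known to be required for heparin in mast cells. *Ndst2* (chr14:20773794-20784737, minus strand) was at 436, 474, 334 and 451 CPM in the scrambled group and at 467, 483, 299 and 589 in the *Zc3h12a* RNP group. Sample 3 was the lowest of each group, and *Zc3h12a* RNP sample 4 was the highest of all 8. The fitted log2 fold change was 0.088, with a 95% interval of -0.15 to 0.33. *Ndst1* (chr18:60817566-60881766, minus strand) was at 104, 124, 85.6 and 78.7 CPM in the scrambled group and at 113, 118, 65.6 and 88.6 in the *Zc3h12a* RNP group. Pairs 1 and 4 were higher and pairs 2 and 3 lower, with a fitted change of -0.040 (95% interval -0.29 to 0.21).

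The balance of these genes was measured as the ratio of their levels per kilobase within a sample. *Ndst2* exceeded *Ndst1* in every sample, by 6.21 to 10.8 times. The ratio was 6.81, 6.21, 6.33 and 9.30 in the scrambled group (mean 7.16 ± 1.45) and 6.69, 6.68, 7.40 and 10.8 in the *Zc3h12a* RNP group (mean 7.89 ± 1.97). Replicate 4 had the highest ratio in both groups. After *Zc3h12a* RNP it was higher in 3 of 4 pairs, with a mean log2 difference of 0.13 and an SD of 0.12 over the pairs. An exact sign-flip permutation test over the pairs (two-sided) gave p = 0.25, where 0.125 is the smallest this design allows, so such a ratio cannot pass 0.05 with these samples.

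Among the epimerase and the O-sulfotransferases, differences between the groups were small against the spread. *Glce* (chr9:61964527-62030067, minus strand), whose enzyme turns glucuronic into iduronic acid, was at 7.96, 6.76, 8.31 and 10.2 CPM and at 9.33, 8.71, 9.99 and 8.51 CPM in scrambled and *Zc3h12a* RNP samples. It was higher in the first 3 pairs and lower in pair 4, with the largest standard error of the 10 (log2 fold change 0.15, standard error 0.16) at the lowest counts. *Hs2st1* (chr3:144134693-144276528, minus strand) was at 50.7, 63.7, 40.1 and 44.4 CPM and at 50.8, 56.2, 48.3 and 48.0 CPM, with a fitted change of 0.049 (standard error 0.093). *Hs6st1* (chr1:36107437-36145527, plus strand) was at 131, 206, 169 and 140.1 CPM and at 157, 179, 151 and 137 CPM, with a fitted change of -0.035 (standard error 0.098). In *Hs2st1* and *Hs6st1*, the *Zc3h12a* RNP samples lay within the range of the scrambled RNP samples. Exons of *Hs2st1* share 450 bases with *Selenof* on the opposite strand, and as the use of strand in the counting is not stated, reads there may have been lost or shared.

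Chst11 adds the 4-O-sulfate of chondroitin, and Chst15 adds a 6-O-sulfate to such 4-sulfated units, which makes the disulfated chondroitin sulfate E of BMMCs. *Chst11* (chr10:82821180-83031734, plus strand) was at 123, 119, 96.5 and 112 CPM in the scrambled group and at 121, 121, 98.1 and 104 in the *Zc3h12a* RNP group. Its pairs differed by -0.11 to 0.03 in log2 CPM, the narrowest span of the 10 genes, and the fitted change was -0.019 (95% interval -0.19 to 0.15). *Chst15* (chr7:131837507-131919201, minus strand) was at 119, 90.3, 106 and 164 CPM and at 116, 91.8, 115 and 146 CPM, with a fitted change of -0.014 (95% interval -0.20 to 0.17). Its level followed the replicate number, as sample 4 was the highest and sample 2 the lowest of each group. *Chst15* shares 1803 exon bases with *Gm10584* on the opposite strand, which had 15 to 33 counts in a sample against 2119 to 4510 for *Chst15*.

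The ratio of *Chst15* to *Chst11* per kilobase ran from 0.850 to 1.64. It was 1.09, 0.852, 1.23 and 1.64 in the scrambled group (mean 1.20 ± 0.332) and 1.07, 0.850, 1.32 and 1.58 in the *Zc3h12a* RNP group (mean 1.21 ± 0.315). Per kilobase of all annotated exons, *Chst15* averaged 15.9 CPM over all samples and *Chst11* 19.7. The side of 1 on which the ratio lies thus depends on the length used. The order of the replicates in the ratio, with 4 above 3, 1 and 2, was the same in both groups. The mean log2 difference after *Zc3h12a* RNP was 0.0055 with an SD of 0.067 over the pairs (exact sign-flip test, two-sided, p = 1).

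**Figure D2:**
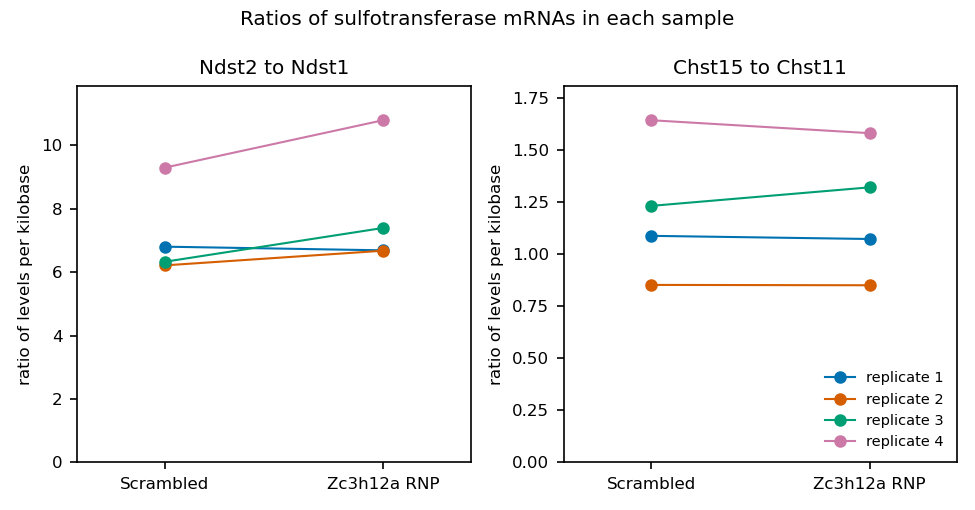
Ratio of *Ndst2* to *Ndst1* (left) and of *Chst15* to *Chst11* (right) in each sample, from levels per kilobase, with lines joining samples of one replicate number. Replicate 4 has the highest value of both ratios in both groups (9.30 and 10.8 for *Ndst2* to *Ndst1*), and the groups overlap.

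**Figure D3:**
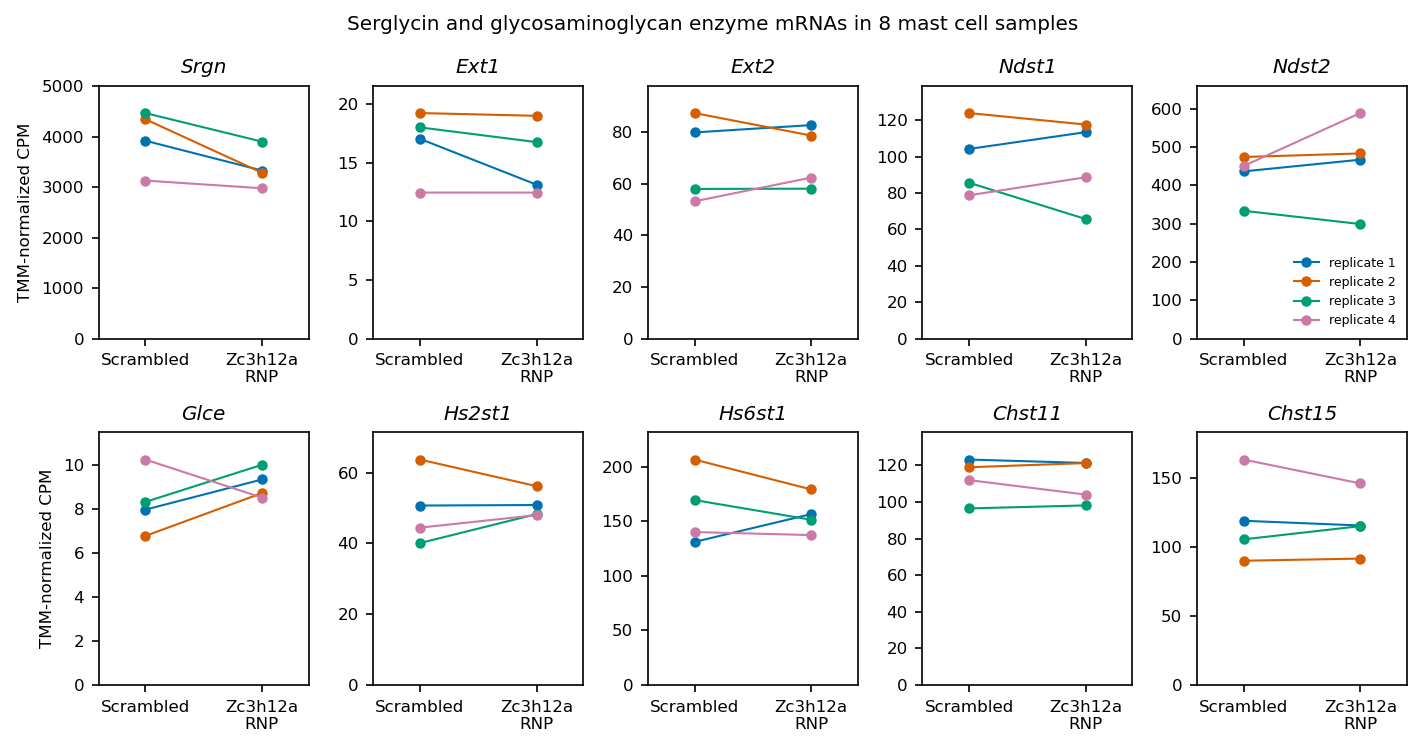
TMM-normalized CPM of the 10 genes in each of the 8 samples, with axes from 0 and lines joining samples of one replicate number. *Srgn* is lower in the *Zc3h12a* RNP sample of each pair, and in every gene the groups overlap.

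Over the 10 genes, 0 passed a log2 fold change beyond 0.5 with an adjusted p at or under 0.05, and over all 14934 genes tested this was 0% as well (edgeR's quasi-likelihood test). DESeq2 with the same block also called 0 of the 10, beside 0.402% of all genes, and limma-trend called 0, beside 0.00670%. At an unadjusted p at or under 0.05, there was 1 of 10, *Srgn*, which was lower, beside 6.17% of all genes in either direction and 4.05% that were lower. Of the 9452 tested genes with a mean above 5 CPM, 591 were lower and 313 higher at such a p in edgeR. In DESeq2 the 1 of 10 was *Srgn* as well, and in limma-trend there was 0 of the 10. By fitted value, 4 genes were higher and 6 lower, with a median log2 fold change of -0.016 beside 0.038 over all genes tested and -0.0045 over the 9452 with a mean above 5 CPM, as all 10 had. *Srgn* and *Ext1* were lower in all 4 pairs, as were 8.54% of all genes. In 0 of 10 genes the groups did not overlap, beside 0.924% of all genes. The 95% intervals of 9 genes lay within a log2 fold change of 0.5 in both directions, and that of *Glce* reached 0.51. As 0.5 is also the threshold of a call, changes smaller than it could not be called at any p, and they are not shown to be absent.

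**Figure D4:**
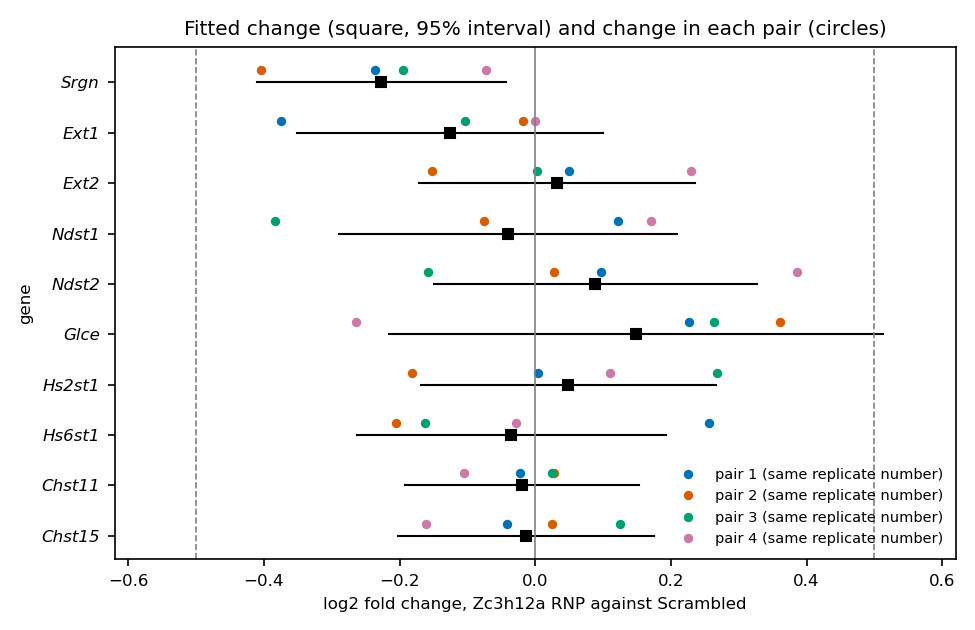
Log2 fold change of the 10 genes after *Zc3h12a* RNP against scrambled RNP, with squares for the fitted value, bars for its 95% interval and circles for the difference in each of the 4 pairs. Dashed lines mark the threshold of 0.5. The fitted values run from -0.23 (*Srgn*) to 0.15 (*Glce*), and the interval of *Srgn* alone lies to one side of 0.

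Levels of several of the enzymes followed the replicate number, as did those of many other genes. In the same fit as the RNP, 5 of 10 genes differed between the replicate numbers at an adjusted p at or under 0.05 (F test of the 3 replicate terms in edgeR), beside 28.0% of all genes tested. Of the 9452 tested genes with a mean above 5 CPM, as all 10 had, 4094 did so, and 5 of 10 is near that share. The 5 were *Chst15* (adjusted p = 0.0117), *Ext2* (0.0213), *Ndst2* (0.0327), *Ndst1* (0.0331) and *Ext1* (0.0447). The means of the pairs spanned 1.70-fold in *Chst15*, 1.63-fold in *Ndst2* and 1.61-fold in *Ndst1*, but 1.37-fold in *Srgn* (adjusted p = 0.0745) and 1.21-fold in *Glce* (adjusted p = 0.700). Replicates did not rank alike over the genes. *Ext1*, *Ext2*, *Ndst1*, *Hs2st1* and *Hs6st1* had their highest pair mean in replicate 2, *Ndst2*, *Glce* and *Chst15* in replicate 4, *Srgn* in replicate 3 and *Chst11* in replicate 1. The count fell to 1 (*Chst15*) with RLE size factors and to 0 to 3 when a replicate was left out. The share of all genes fell as well, to 15.8% with RLE and to 9.62% to 19.3% when a replicate was left out. In DESeq2 and limma-trend the count was 4 each, beside 26.7% and 28.5% of all genes. Over 10 alternatives that tested it, *Chst15* passed in 7, *Ndst2* in 6, *Ext2* in 5, *Ndst1* in 4 and *Ext1* in 0.

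Over the 8 samples, which share library preparation and differ in depth, the log2 CPM of *Srgn* had its highest Pearson correlations with *Rps13-ps1* (0.964), *Rtraf* (0.961), *Exosc3* (0.960), *Snx12* (0.941) and *Srp14* (0.940). The first of these is a processed pseudogene at a mean of 1.18 CPM, whose reads may belong to near-identical copies. Of the enzymes, *Ext1* was nearest to *Srgn* (0.756), followed by *Hs6st1* (0.482). *Chst15* (-0.612) and *Ndst2* (-0.638) ran opposite to it, and both had their highest pair mean in replicate 4, in which *Srgn* had its lowest. With 8 samples these values are descriptions.

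A wider list of 88 genes of glycosaminoglycan and proteoglycan metabolism gave the surroundings of the 10. Of these, 85 were in the tables and 71 passed the filter, of which 34 were higher and 37 lower by fitted value. Their median log2 fold change was -0.0049, beside 0.038 over all genes tested, and among the 48 with a mean above 5 CPM it was -0.026, beside -0.0045 over all genes above 5 CPM. Of the 71, 0 were called in either direction. At an unadjusted p at or under 0.05, 3 were lower and 1 higher, or 4 of 71, which is near the 6.17% of all genes tested. In 23 of the 71, with a mean at or under 5 CPM, the pairs had median differences of 0.14, 0.95, -0.01 and -0.85 in log2 CPM. All 5482 tested genes that low had 0.38, 1.55, 0.02 and -0.89, with the same order of the pairs.

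Other members of the same enzyme families were compared per kilobase. *Hs6st2*, at 81.5 ± 9.70, exceeded *Hs6st1*, and its range of 69.7 to 100.7 did not meet the 34.8 to 54.9 of *Hs6st1*. *Ndst3* was at 7.57 ± 1.73, below *Ndst1* in every sample although their ranges overlapped. *Ndst4* had 0 counts in 5 samples and 2 or 3 in the others. *Papss2*, for the synthase of the sulfate donor PAPS, was at 316 ± 52.2, and *Chsy1*, for a chondroitin synthase, at 61.1 ± 8.03. *Fam20b* and *B3gat3*, which act on the linkage region, were at 39.5 ± 2.50 and 22.1 ± 3.05, and *Csgalnact2*, which starts chondroitin chains, at 28.0 ± 2.89. None of the genes in this paragraph that were tested had an unadjusted p at or under 0.05. The nucleotide sugar gene *Uap1* (45.6 ± 5.23 CPM per kilobase), the hyaluronan receptor gene *Cd44* (17.8 ± 4.15) and the lysosomal genes *Hexa* (105 ± 14.5) and *Glb1* (101 ± 15.1) did not reach it either.

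Some genes of granule proteases held by serglycin were abundant, with *Cpa3* at 31172 ± 3611 and 27808 ± 1791 CPM and *Cma1* at 8702 ± 1417 and 7889 ± 468 CPM in scrambled and *Zc3h12a* RNP samples. Their fitted log2 fold changes were -0.16 and -0.13 (adjusted p = 0.917 and 0.960 in edgeR). *Tpsb2*, which encodes a tryptase, was at 6664, 6451, 5399 and 8418 CPM in the scrambled group and 5490.1, 5098, 5075 and 6312 in the *Zc3h12a* RNP group. Like *Srgn* it was lower in 4 of 4 pairs and its groups overlapped (log2 fold change -0.28, standard error 0.08, adjusted p = 0.554 in edgeR). *Mcpt2* was higher in 4 of 4 pairs at low levels (5.92 ± 2.78 against 9.04 ± 3.39 CPM, log2 fold change 0.65, adjusted p = 0.686 in edgeR). *Mcpt4* was also low, and *Mcpt1* and *Tpsab1* did not pass the filter, with 2 to 11 and 0 to 3 counts in a sample.

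The remaining genes at an unadjusted p at or under 0.05 were *Hs3st1* and *Vcan*. *Hs3st1*, for a 3-O-sulfotransferase that completes the antithrombin-binding site of heparin, was at 111, 176, 161 and 168 CPM in the scrambled group and 59.4, 149.6, 118 and 79.0 in the *Zc3h12a* RNP group. It was lower in every pair, the groups overlapped only through scrambled RNP sample 1 and *Zc3h12a* RNP samples 2 and 3, and the fitted log2 value was -0.67, with 0.15 as its standard error and 0.424 as its adjusted p in edgeR. *Vcan*, for the proteoglycan versican, was at 427, 251, 223 and 415 CPM and at 237, 181, 152 and 336 CPM. It too was lower in every pair, by a fitted log2 value of -0.55 ± 0.10 (standard error), with an adjusted p of 0.401 in edgeR. DESeq2 with the same block called both, *Hs3st1* at an adjusted p of 0.000216 and *Vcan* at 0.00189, so their calls depend on the tool. The call of *Hs3st1* also depends on the filter and the samples. In edgeR it was called without the low-count filter (adjusted p = 0.0355) and without replicate 2 (0.00435), where 0.170% and 0.908% of all genes were called. DESeq2 called 60 of all 14934 genes tested (0.402%), where the main edgeR fit called 0. *Srgn* was called by neither tool. Its log2 fold change (-0.23 in edgeR and -0.25 in DESeq2) fell short of 0.5, so it could not be called at any p.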

How the data were processed

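RNA of 8 BMMC samples was sequenced as poly(A)-selected libraries (Tecan Revelo kit). The authors aligned the reads with HISAT2 2.2.1 to GRCm39, after FastQC 0.11.9, and deposited raw counts per gene from featureCounts 2.0.1, 1 file per sample. How strand and reads with several matches were treated is not given in the sources used here. A batch removal (removeBatchEffect) is named in the methods, and the deposited counts do not carry it, being whole numbers.

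Counts were tested over all 8 samples with edgeR 4.0.16 in R 4.3.3 (TMM, filterByExpr within groups, quasi-likelihood fit of replicate number and RNP), and p-values were adjusted by Benjamini-Hochberg over 14934 genes. Calls needed a log2 fold change beyond 0.5 together with an adjusted p of at most 0.05. The standard error was derived from the fold change and the F statistic (log2 fold change over root F). A prior count of 2 entered log2 CPM, and ratios added 0.5 to counts. Scripts were tested on simulated data. DESeq2 1.42.0, limma 3.58.1, RLE and upper-quartile normalization, 2 other filters, no block and leaving out each replicate were alternatives. Figures used matplotlib 3.10.9 in Python 3.11.15.

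Pairing follows the study's design of 4 mice, each given both RNPs. After subtraction of the group means, samples of one number correlated at 0.595, 0.075, 0.624 and 0.041 over all genes, where different numbers reached 0.398, above the values of replicates 2 and 4. They correlated at 0.756, 0.717, 0.728 and 0.719 over 9668 genes above a log2 CPM of 2, where different numbers reached at most 0.137.

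GENCODE vM39 held 22601 of the 24059 symbols. Genes named besides the 10 were, by rule, those of the wider list with an unadjusted p at or under 0.05, the top 2 per kilobase of each sub-list, the 5 most correlated with *Srgn*, and *Zc3h12a*. *Ndst3*, *Ndst4*, *Chst12*, *Papss1*, the markers *Mcpt4*, *Cd200r3*, *Itga2b* and *Pecam1*, and the overlapping genes *Selenof* and *Gm10584* were added after their values were seen. So were *Mcpt1* and *Tpsab1*. The 10 genes, the lists and the tests were chosen with earlier results of these data known.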

Additional observations from a re-analysis of the deposited data

How the results depend on the processing

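Over the 11 alternatives, the log2 fold changes of the 10 genes ran from -0.29 (*Srgn*) to 0.29 (*Glce*). These fall short of the 0.5 that a call needs, so no p-value could have given a call. None of the 10 genes was thus called under any of the 11 alternatives. *Srgn* stayed lower in each, with a log2 fold change of -0.29 to -0.11 when a replicate was left out and -0.25 to -0.19 otherwise, and adjusted p-values of 0.492 to 1. The number of the 10 at an unadjusted p at or under 0.05 was 1 with upper-quartile normalization, 10 counts in every sample, DESeq2 or without replicate 4. It was 0 with no replicate block, with RLE size factors, without the low-count filter and in limma-trend, and ranged from 0 to 1 when a replicate was left out. Without the replicate block, 1 gene of the wider list had such a p, against 4 with it, and 3 to 7 did when a replicate was left out. Wider-list genes were called without the low-count filter (1, *Hs3st1*), in DESeq2 (2) and when a replicate was left out (0 to 2, the latter *Hs3st1* and *Mcpt2* without replicate 2), where 0.170%, 0.402% and up to 0.908% of all genes were called. The number of the 10 that differed by replicate number was 4 in DESeq2 and 4 in limma-trend, beside 26.7% and 28.5% of all genes. It was 1 with RLE (15.8% of all genes), 3 with upper-quartile normalization (26.2%), 2 without the filter (13.8%) and 3 with at least 10 counts (36.4%). When a replicate was left out, it was 0 to 3, beside 9.62% to 19.3% of all genes.

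Values near 0 changed sign. Without the filter, *Chst11* was at 0.014 and *Chst15* at 0.020. When a replicate was left out, the ranges were -0.086 to 0.027 for *Chst11*, -0.11 to 0.040 for *Chst15*, -0.19 to 0.0012 for *Ext1*, -0.032 to 0.16 for *Ext2*, -0.076 to 0.19 for *Hs2st1*, -0.088 to 0.083 for *Hs6st1*, -0.11 to 0.033 for *Ndst1*, -0.010 to 0.17 for *Ndst2*, -0.026 to 0.026 for the *Chst15* to *Chst11* ratio and -0.061 to 0.059 for the median of the 10. The fitted values of all genes moved as well, by a median of 0.033 without the filter. Without replicates 1 to 4 these medians were 0.043, 0.054, -0.037 and 0.0015. How far such shifts of all genes account for the changes of sign was not tested. *Glce* and the *Ndst2* to *Ndst1* ratio kept their direction in all alternatives run. *Glce* and *Ext1* had the fewest counts of the 10, with 201 to 578 in a sample.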
